A study of Mus musculus with 12 samples.

Results

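The 9 genes described here encode enzymes that make, break down or pass on glutamate and the branched-chain amino acids. They are Gls2, Glud1, Gpt2, Got1, Got2, Bcat1, Bcat2, Aldh18a1 and Asns, chosen by name and matched by symbol to Ensembl genes of a mouse RNA sequencing count table. All 9 were among the 17812 of 49671 genes that were tested. The 12 libraries come from formalin-fixed, paraffin-embedded mouse brain, with 3 libraries in each of 4 groups. The tumour groups carry the labels IDH1_R132H (isocitrate dehydrogenase 1 with the R132H change of human glioma), IDH1WT (the enzyme without that change) and PDGFA (a growth factor that binds PDGFRA). All tumours arose in N::TVA mice whose floxed alleles include those of Atrx and Cdkn2a. Cells with TVA, a bird virus receptor, can be infected by RCAS vectors, and N::TVA lines are known to carry it under the nestin promoter, in neural progenitors. The normal brains came from mice with the same floxed alleles that were TVA negative. The labels give no age, sex or batch, and leave unsaid if PDGFA was also given with IDH1. Nor do they say that each library is a separate animal, so p-values measure the spread between these libraries.

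Glutamate is the main excitatory transmitter of the brain and the nitrogen donor for most other amino acids. Glutaminases form it from glutamine, transaminases move its amino group to and from keto acids, and glutamate dehydrogenase releases its nitrogen, with 2-oxoglutarate as the carbon product in both cases. Isocitrate dehydrogenases also make 2-oxoglutarate, and the R132H enzyme converts it to 2-hydroxyglutarate, which is known to inhibit the branched-chain transaminases. Human IDH-mutant gliomas are known for low BCAT1.

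The total count was 6507923 to 14277395 per library. In IDH1_R132H tumour 3, 47.9% of the count fell on loci that collect ribosomal RNA reads (Gm42418, Gm26917, Lars2 and the like), against 2.9% to 19.5% in the other libraries. PDGFA tumour 1 stood apart in its cell markers. Its 10 astrocyte markers summed to 949 CPM, against 3350 to 6230 in the other tumours and 4780 to 4940 in the normal brains. Its 10 oligodendrocyte precursor markers summed to 463 CPM, against 1280 to 6280 in the other tumours and 466 to 487 in the normal brains. Its microglia and macrophage markers summed to 25.5 CPM, against 138 to 314 in the other tumours and 97.9 to 164 in the normal brains. Its myelin markers summed to 11500 CPM, against 2280 to 6610 in the other tumours and 3470 to 3540 in the normal brains. CPM is the count divided by the TMM-scaled library size, which sets the typical gene to no change. The chi-square per gene between normal brains 1 and 2 was 2.43, while normal brain 3 gave 26.1 and 27 with them. Sampling noise alone would give about 1, and pairs within the tumour groups gave 11.1 to 311. A value of 2.43 does not show if normal brains 1 and 2 are separate animals. All were kept as separate libraries. No marker of the neuron, astrocyte, precursor, myelin, microglia, endothelial or proliferation lists was at 0 in any library.

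All tumours together, each of the 3 groups weighing the same, were first compared with normal brain. Of the 9 enzyme genes, Gpt2 and Aldh18a1 rose in tumours, Gls2 fell, and 6 did not pass. Calls are those of edgeR's quasi-likelihood test with a Benjamini-Hochberg adjusted p below 0.05, and 5.22% of all genes tested were called (3.71% higher and 1.5% lower). The median log2 fold change of the 9 genes was -0.09, against -0.01 for all genes. DESeq2 called the same 2 genes higher and the same gene lower, beside 11.7% of all genes. At an unadjusted edgeR p under 0.05 there were 4 of the 9, against 23.6% of all genes. These calls rest on the 3 normal brains: without normal brain 1, 2 or 3, edgeR called 0 of the 9 genes in each case, and 0, 1 and 3 genes in the whole table. The directions of the 3 called genes were kept without any 1 library.

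**Figure D1:**
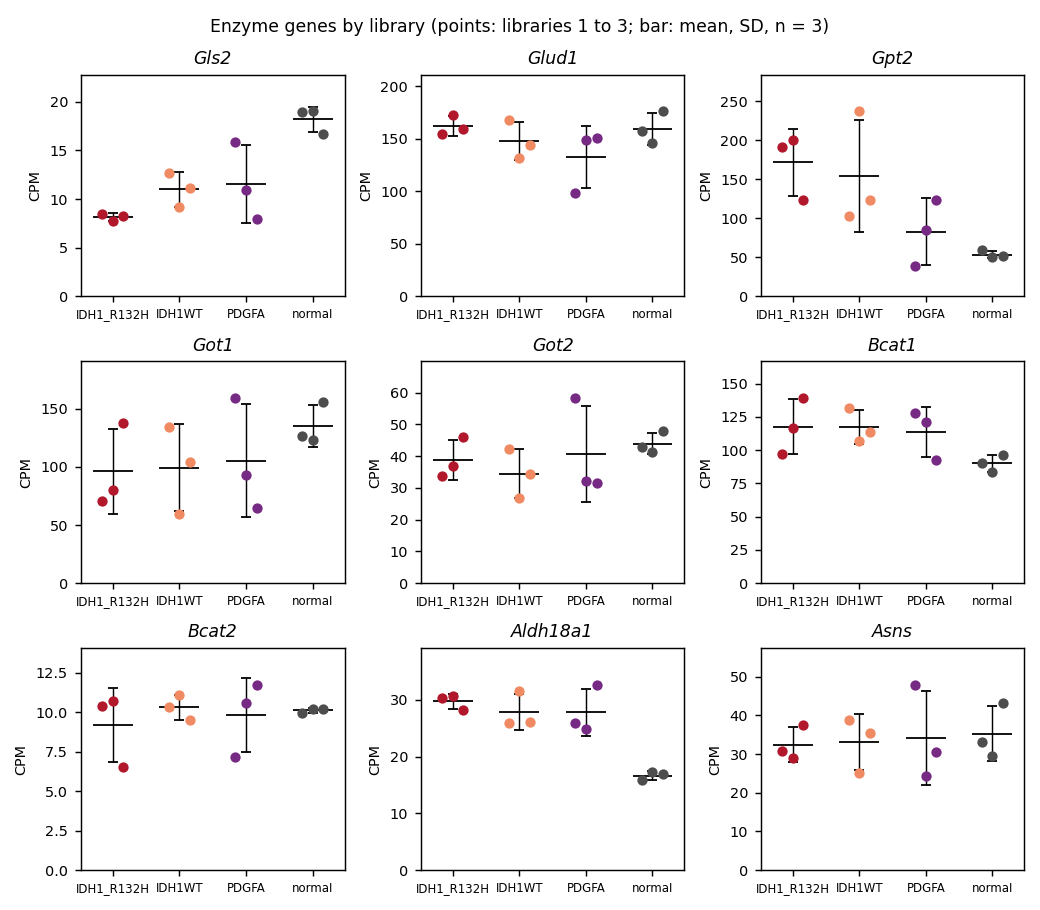
CPM of each of the 9 enzyme genes (y axis, from 0) in each library, grouped as IDH1_R132H, IDH1WT, PDGFA and normal brain; points are libraries 1 to 3 and bars the mean with SD (n = 3). Aldh18a1 separates every tumour (24.9 to 32.6 CPM) from every normal brain (15.8 to 17.3 CPM), while Got1, Got2 and Asns overlap.

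Aldh18a1 encodes the mitochondrial synthase that turns glutamate into pyrroline-5-carboxylate, the precursor of proline and ornithine (chromosome 19, 40550257 to 40588463, minus strand, GRCm38). It stood at 30.4, 30.7 and 28.2 CPM in the IDH1_R132H libraries 1 to 3, 26, 31.6 and 26.2 in IDH1WT tumours, 25.9, 24.9 and 32.6 in PDGFA tumours, and 15.8, 17.3 and 16.9 in normal brains. Every tumour lay above every normal brain, and the tumours varied little, with a coefficient of variation of 10.1% over 9. It was 1.71-fold higher in tumours, 0.77 as log2 (SE 0.13, edgeR adjusted p = 0.0157). PDGFA tumour 1, whose glial markers stood apart, was at 25.9 CPM, inside the range of the other tumours. Proliferation and oligodendrocyte precursor markers also rose in tumours: 9 of 10 proliferation markers rose (median log2 fold change 4.45) and 8 of 10 precursor markers rose (median 2.91). The proliferation markers summed to 120 to 803 CPM in tumours and 10.6 to 17.5 in normal brains. PDGFA tumour 3 and IDH1WT tumour 2 were the 2 highest tumours for Aldh18a1 and for the proliferation sum (803 and 576 CPM), while PDGFA tumour 1 had the lowest such sum of the tumours. IDH1_R132H tumours 1 and 2, at 30.4 and 30.7 CPM of Aldh18a1, had proliferation sums of 200 and 293 CPM. IDH1WT tumour 3, at 26.2 CPM, had 448. The precursor markers of PDGFA tumour 1 summed to 463 CPM, against 466 to 487 in normal brains. The part of dividing and precursor cells in the Aldh18a1 result was not tested. Groups that do not overlap were seen for Aldh18a1 and Gls2, and for 7.5% of all genes tested.

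The promoters of Aldh18a1, Asns and Got1 are shown because they hold a motif of amino acid or growth control that was searched for in the 250 bases before the start of each gene. The motifs were TGATGNAA, the core of the amino acid response element that ATF4 is known to bind, and CACGTG, the E-box bound by MYC and related factors. Both strands were searched and both motifs were chosen with results known. RefSeq on GRCm38.p6 had promoters for 8 of the 9 genes. Capitals mark the match, sequences run 5′ to 3′ on the gene's strand and end at the base before the start.
Aldh18a1: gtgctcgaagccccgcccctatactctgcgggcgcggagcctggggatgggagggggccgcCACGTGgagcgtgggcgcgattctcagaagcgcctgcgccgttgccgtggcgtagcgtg
Asns: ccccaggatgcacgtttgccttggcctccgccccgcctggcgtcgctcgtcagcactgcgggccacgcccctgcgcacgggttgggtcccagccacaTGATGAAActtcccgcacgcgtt
Got1: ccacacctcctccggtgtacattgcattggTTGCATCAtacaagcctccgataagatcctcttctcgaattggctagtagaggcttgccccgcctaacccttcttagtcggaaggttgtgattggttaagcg
The Aldh18a1 stretch (chr19:40588464-40588583, minus strand) holds CACGTG, which 6.02% of 32851 promoters hold. The Asns stretch (chr6:7693210-7693329, minus strand) holds TGATGNAA on the gene's strand, and the Got1 stretch (chr19:43524606-43524737, minus strand) holds it on the opposite strand, where 3.45% of promoters have it on either strand. Of these genes Aldh18a1 rose in tumours, and Asns and Got1 did not pass.

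Gpt2, the mitochondrial alanine aminotransferase, which makes alanine and 2-oxoglutarate from glutamate and pyruvate, differed most in size. It stood at 191, 201 and 123 CPM in the IDH1_R132H libraries 1 to 3, 103, 237 and 124 in IDH1WT tumours, 38.6, 85.5 and 124 in PDGFA tumours, and 58.8, 50.2 and 51.3 in normal brains. All tumours but PDGFA tumour 1 lay above the normal brains, and PDGFA tumour 1 lay below all of them. It was 2.43-fold higher in tumours, 1.28 as log2 (SE 0.34, edgeR adjusted p = 0.0488). That call is close to the threshold and ended without IDH1_R132H tumour 1 (adjusted p = 0.0688) or 2 (0.0852), IDH1WT tumour 2 (0.0568) or 3 (0.0601), PDGFA tumour 2 (0.0682) or any normal brain (0.165 to 0.201). Oligodendrocyte precursor markers moved with it. All 10 stood higher in tumours by log2 fold change and 8 of them rose. The summed level was 2970 to 6280 CPM in IDH1_R132H tumours, 2040 to 5990 in IDH1WT tumours, 463 to 3890 in PDGFA tumours and 466 to 487 in normal brains. The 9 tumours ranked by Gpt2 stood in the same order as by these markers, except that IDH1WT tumour 2 and IDH1_R132H tumour 2 changed places at the top. PDGFA tumour 3, IDH1WT tumour 3 and IDH1_R132H tumour 3 were nearly level in Gpt2 (124, 124 and 123 CPM), so their order rests on small differences. The part of precursor cells in the Gpt2 result was not tested. In bulk tissue more cells of a type and more RNA per cell cannot be told apart.

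Gls2, the glutaminase often called the liver type, fell in tumours (chromosome 10, GRCm38). It stood at 8.45, 7.73 and 8.29 CPM in the IDH1_R132H libraries 1 to 3, 12.7, 9.15 and 11.1 in IDH1WT tumours, 15.9, 10.9 and 7.98 in PDGFA tumours, and 18.9, 19 and 16.7 in normal brains. Every tumour lay below every normal brain, with PDGFA tumour 1 nearest to them. The log2 fold change was -0.85 (SE 0.19, edgeR adjusted p = 0.0268), on raw counts of 42 to 192 per tumour library and 164 to 191 per normal brain. It ended as a call without IDH1_R132H tumour 2 (adjusted p = 0.0567) or any normal brain (0.0968 to 0.152). The 10 neuron markers summed to 2690 to 7130 CPM in tumours and 5990 to 6300 in normal brains, with 9 of the 10 lower in tumours by log2 fold change and 0 called by edgeR (2 at an unadjusted p under 0.05, 0 by DESeq2). IDH1_R132H tumour 3 and PDGFA tumour 1 had sums of 6740 and 7130 CPM, above every normal brain, with Gls2 at 8.29 and 15.9 CPM. The part of neuronal RNA in the Gls2 result was not tested.

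**Figure D2:**
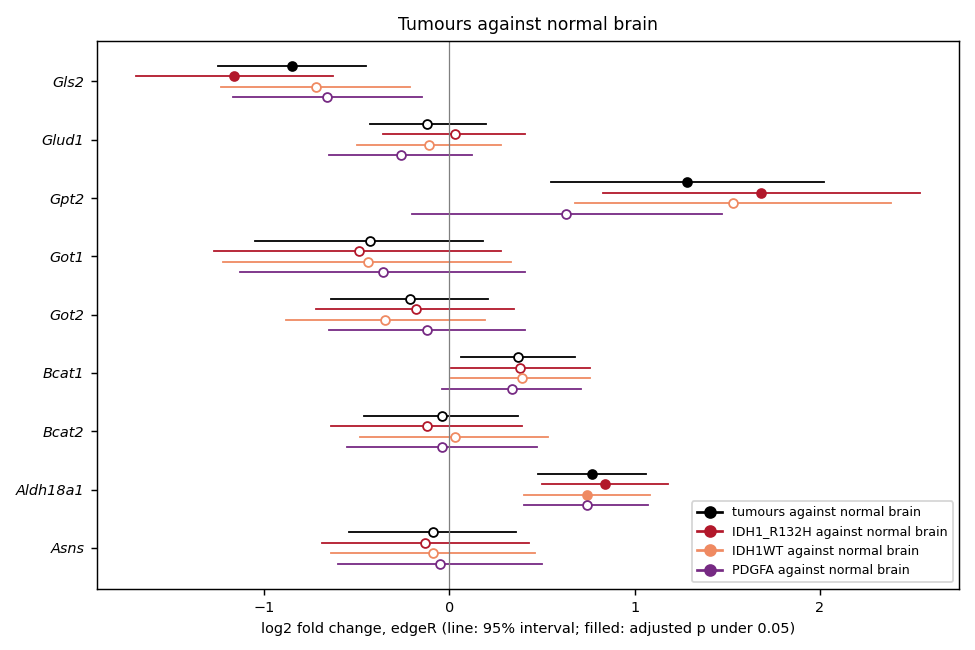
Log2 fold change (x axis) of each enzyme gene for all tumours and for each tumour group, over normal brain; lines are 95% intervals and filled points passed an edgeR adjusted p of 0.05. Aldh18a1 lies between 0.74 and 0.84 in the 3 tumour groups, and Gpt2 between 0.63 and 1.68.

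Glud1, the mitochondrial glutamate dehydrogenase, did not pass in tumours. It stood at 155, 173 and 159 CPM in IDH1_R132H tumours, 168, 131.8 and 144 in IDH1WT tumours, 98.8, 149 and 151 in PDGFA tumours and 157, 146 and 176 in normal brains. PDGFA tumour 1 was the lowest library. IDH1WT tumours 2 and 3 also lay below the normal brains, and the other tumours lay within the range of the normal brains. The log2 fold change was -0.12 with a 95% interval of -0.43 to 0.2 (edgeR adjusted p = 0.665).

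The aspartate aminotransferases Got1, of the cytosol, and Got2, of the mitochondrion, carry reducing equivalents in the malate-aspartate shuttle. Got1 stood at 70.9, 80 and 138 CPM in the IDH1_R132H libraries 1 to 3, 134, 59.8 and 104 in IDH1WT tumours, 159, 93 and 64.3 in PDGFA tumours, and 127, 123 and 156 in normal brains. Within each tumour group the highest library was about as high as the normal brains, and the lowest was well below them. Got2 stood at 33.7, 36.8 and 46 CPM in IDH1_R132H tumours, 42.3, 26.8 and 34.4 in IDH1WT tumours, 58.2, 32.2 and 31.5 in PDGFA tumours and 42.8, 41.3 and 47.8 in normal brains. The log2 fold changes of -0.43 (SE 0.28, 95% interval -1.05 to 0.18) for Got1 and -0.21 (SE 0.2, interval -0.64 to 0.21) for Got2 did not pass (edgeR adjusted p = 0.382 and 0.547). The tumours ranked by Got1 stood in the order of their summed neuron markers, except that IDH1WT tumour 3 and PDGFA tumour 2 changed places. PDGFA tumour 1 and IDH1_R132H tumour 3 were the 2 highest tumours for Got1 and Got2 and for neuron markers (7130 and 6740 CPM). IDH1WT tumour 2 was the lowest for all of these (2690 CPM). The part of neuronal RNA in these levels was not tested.

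Asns, the asparagine synthetase, takes its amide nitrogen from glutamine and leaves glutamate. It stood at 30.7, 28.9 and 37.5 CPM in IDH1_R132H tumours, 38.8, 25 and 35.5 in IDH1WT tumours, 47.8, 24.2 and 30.5 in PDGFA tumours, and 33.1, 29.5 and 43.2 in normal brains. The groups overlapped throughout, and the log2 fold change was -0.09 with an interval of -0.54 to 0.36 (edgeR adjusted p = 0.831). PDGFA tumour 1 was the highest of the 12 libraries for Asns, as it was for Got1 and Got2.

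The branched-chain transaminases move the amino group of leucine, isoleucine and valine to 2-oxoglutarate, Bcat1 in the cytosol and Bcat2 in the mitochondrion. Bcat1 stood at 97.2, 117 and 139 CPM in the IDH1_R132H libraries 1 to 3, 132.2, 107 and 114 in IDH1WT tumours, 128, 121 and 92.4 in PDGFA tumours, and 90.7, 83.5 and 96.3 in normal brains. All tumours but PDGFA tumour 3 lay above the normal brains, and the log2 fold change of 0.37 (SE 0.14, interval 0.06 to 0.68) did not pass after adjustment (edgeR unadjusted p = 0.024, adjusted p = 0.145). Limma voom with sample quality weights called it (adjusted p = 0.0058) beside 6005 of 17812 genes. The IDH1_R132H and IDH1WT tumours had the same mean Bcat1 level, 118 ± 20.7 and 118 ± 13 CPM (SD, n = 3 each). Bcat2 stood at 10.4, 10.7 and 6.51 CPM in IDH1_R132H tumours, 10.3, 11.1 and 9.5 in IDH1WT tumours, 7.16, 10.6 and 11.7 in PDGFA tumours and 9.93, 10.2 and 10.2 in normal brains. The low libraries were IDH1_R132H tumour 3 and PDGFA tumour 1, on raw counts of 33 and 64, and the log2 fold change of -0.04 (interval -0.46 to 0.37) did not pass (edgeR adjusted p = 0.915). Of the exon bases of Bcat2, 1091 lie within the span, introns included, of the opposite-strand gene 0610005C13Rik, and 545 of Bcat1, 434 of Got2 and 97 of Gls2 lie within spans of other opposite-strand genes. The strand setting of the counting is not given in the sources used here, so reads of both genes, where their exons coincide, cannot be told apart.

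**Figure D3:**
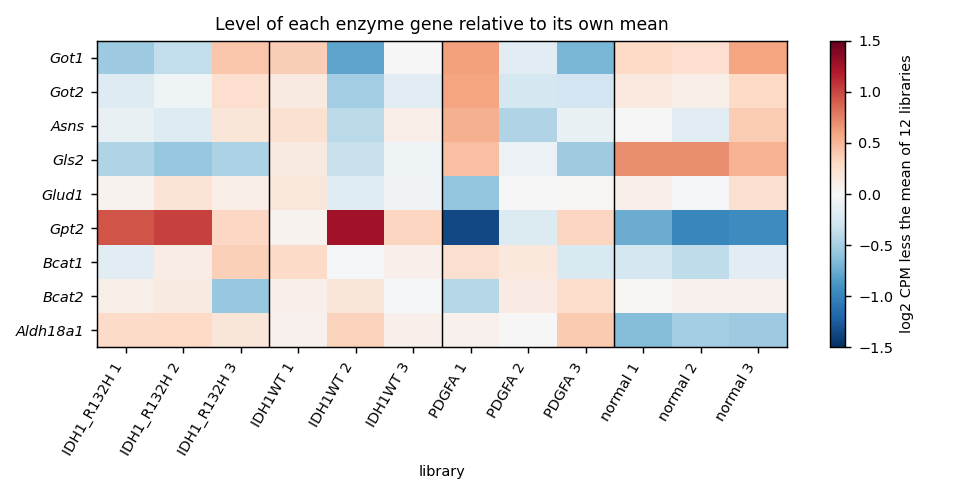
Log2 CPM of each enzyme gene less its mean over the 12 libraries (colour), with libraries in columns and genes in rows. Got1, Got2 and Asns are high together in PDGFA tumour 1 and normal brain 3 and low in IDH1WT tumour 2, while Gpt2 has the opposite signs there.

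Per kilobase of annotated exon, Got1 and Glud1 were the most abundant of the 9 genes. In tumours Got1 averaged 39.5 ± 14.1 RPKM, Glud1 35.1 ± 5.25, Gpt2 24.1 ± 11, Bcat1 12.5 ± 1.67, Asns 12.1 ± 2.74, Got2 7.88 ± 1.97, Aldh18a1 7 ± 0.709, Gls2 2.95 ± 0.78 and Bcat2 2.5 ± 0.454 (SD, n = 9). In normal brains the levels were 53.3 ± 6.98 for Got1, 37.9 ± 3.64 for Glud1, 12.9 ± 2.6 for Asns, 9.67 ± 0.685 for Bcat1, 9.46 ± 0.83 for Gpt2 and 9.11 ± 0.705 for Got2. Gls2 was at 5.24 ± 0.374, Aldh18a1 at 4.1 ± 0.192 and Bcat2 at 2.59 ± 0.0374 RPKM (SD, n = 3). Neighbours in these orders differed by no more than the larger SD for Got1 and Glud1, Glud1 and Gpt2, Bcat1 and Asns, Got2 and Aldh18a1, and Gls2 and Bcat2 in tumours, and for Bcat1, Gpt2 and Got2 in normal brain. Gpt2 was the third by level in tumours and level with Bcat1 and Got2 in normal brain, while Aldh18a1 lay above Gls2 in tumours and below it in normal brain. Lengths are unions of all annotated exons, so a gene with long rare exons reads low.

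Enzymes of the same reaction were set against each other within each library, which does not depend on scaling between libraries. The log2 ratio of Gpt2 to Gpt, the cytosolic alanine aminotransferase, averaged 4.72 ± 0.83 in tumours and 2.68 ± 0.16 in normal brain (SD, n = 9 and 3). Every tumour, PDGFA tumour 1 included at 3.05, lay above the normal brains at 2.54 to 2.85. The difference was 2.05 (exact two-sided permutation p = 0.0045, the smallest that 220 splits can give, adjusted over 4 ratios 0.018). The ratio is built from Gpt2, already called higher in these libraries, and Gpt, so it is not separate support for either. How many other gene pairs reach this p was not tested. Gpt was scarce, at 4.56 ± 1.3 CPM in tumours and 8.16 ± 0.258 in normal brain. Its own log2 fold change of -0.83 did not pass in edgeR (adjusted p = 0.0651). DESeq2 called it lower (adjusted p = 0.019), beside 11.7% of all genes in either direction. No tumour overlapped the normal brains for Gpt, and 7.5% of all genes tested had groups that did not overlap. With 2 normal brains left the adjusted exact permutation p was 0.073 for Gpt2 to Gpt whichever was left out, and 55 splits cannot give an unadjusted p under 0.018.

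The ratio of Got1 to Got2 averaged 1.35 ± 0.26 in tumours and 1.61 ± 0.08 in normal brain, and that of Bcat1 to Bcat2 3.56 ± 0.45 and 3.13 ± 0.11 (SD, n = 9 and 3). Neither passed (exact permutation p = 0.1 and 0.12, adjusted 0.12 for each). The highest Bcat1 to Bcat2 ratios were in IDH1_R132H tumour 3 (4.37) and PDGFA tumour 1 (4.12), the libraries with the fewest Bcat2 counts.

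**Figure D4:**
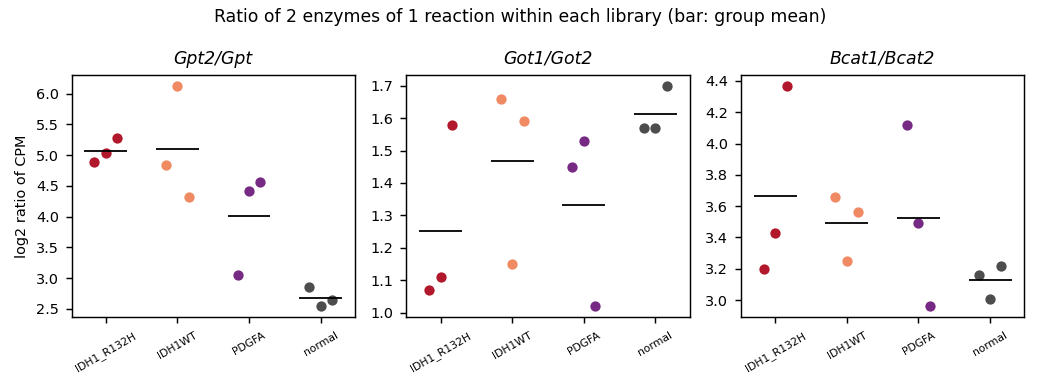
Log2 ratio of CPM (y axis, each panel with its own range) of Gpt2 to Gpt, Got1 to Got2 and Bcat1 to Bcat2 in each library, with a bar at each group mean. The Gpt2 to Gpt ratio is 3.05 to 6.13 in tumours, above 2.54 to 2.85 in normal brains, while tumours and normal brains overlap in the other panels.

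Each tumour group was also compared with the same 3 normal brains, so the 3 comparisons share their controls. In IDH1_R132H tumours Aldh18a1 (log2 fold change 0.84, edgeR adjusted p = 0.0175) and Gpt2 (1.68, adjusted p = 0.0278) rose and Gls2 fell (-1.16, adjusted p = 0.0209), where 7.17% of all genes were called. DESeq2 called the same 3, beside 13.7% of all genes. In IDH1WT tumours Aldh18a1 rose (0.74, edgeR adjusted p = 0.0369), where 1.72% of all genes were called, and Gpt2 (1.53, adjusted p = 0.0645) and Gls2 (-0.72, adjusted p = 0.125) did not pass. DESeq2 called Aldh18a1 and Gpt2 there, beside 7.15% of all genes. In PDGFA tumours edgeR called 0 of the 9 genes (2 at an unadjusted p under 0.05, as for 10.6% of all genes), where 0.303% of all genes were called. The values there were 0.74 for Aldh18a1 (edgeR adjusted p = 0.0718), 0.63 for Gpt2 and -0.66 for Gls2, and DESeq2 called 1 gene, Aldh18a1, beside 2.72% of all genes. The PDGFA result turned on PDGFA tumour 1: without it edgeR called Aldh18a1 and Gls2, beside 828 genes of 18816. Without that tumour the IDH1WT count was 3, with Gpt2 and Gls2 added, beside 5.79% of all genes. Without IDH1_R132H tumour 2 the IDH1_R132H count was 0 and the whole table held 1 called gene. Without IDH1_R132H tumour 1 the IDH1_R132H count was 1, beside 3.49% of all genes. Without any 1 normal brain each of the 3 comparisons called 0 of the 9 genes, beside 0% to 0.00532% of all genes. The IDH1WT count was also 0 without IDH1WT tumour 2 or 3 (0% of all genes in each case). It was 0 without IDH1_R132H tumour 1 (0.885% of all genes) or 2 (0.744%). It was 2 without IDH1WT tumour 1 (3.65%) or PDGFA tumour 3 (5.36%).

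The tumour groups were then set against each other, the question the series names being how IDH1 mutant and wild-type tumours differ. For IDH1_R132H against IDH1WT tumours edgeR and DESeq2 each called 0 of the 9 genes, with 0 at an unadjusted p under 0.05, where 0% of all genes were called and 2.67% had an unadjusted p under 0.05. The log2 fold changes ran from -0.44 to 0.16. Gls2 was at the low end (SE 0.24, interval -0.97 to 0.09), with IDH1_R132H tumours at 7.73 to 8.45 CPM and IDH1WT tumours at 9.15 to 12.7. It was the 1 enzyme gene whose groups did not overlap, as for 6.75% of all genes. The intervals still allow changes of some size: -0.67 to 0.98 for Gpt2 and -0.38 to 0.37 for Bcat1.

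Against the mean of IDH1WT and PDGFA tumours, edgeR called 0 of the 9 genes in IDH1_R132H tumours, as it called 0% of all genes. Gls2 had an unadjusted edgeR p of 0.05 with a log2 fold change of -0.47 (adjusted p = 0.772), 1 of the 9 genes beside 6.44% of all genes, and DESeq2 called 0 of the 9 beside 0.135% of all genes. Against PDGFA tumours alone Gpt2 was higher in IDH1_R132H tumours by 1.05 on the log2 scale (SE 0.39) and in IDH1WT tumours by 0.9 (SE 0.38). Neither passed (edgeR unadjusted p = 0.018 and 0.037, adjusted p = 0.387 and 0.833), Gpt2 being the 1 enzyme gene under an unadjusted 0.05 in each, beside 10.9% and 5.83% of all genes. EdgeR called 0% of all genes in either, and DESeq2 called 0 of the 9 genes in each, beside 0.909% and 0.0817% of all genes.

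The genes most like each enzyme gene were taken as those with the highest Pearson correlation of log2 CPM over the 12 libraries, among 10179 genes. The libraries share group and tissue differences, so these values describe the pattern only. For Gpt2 they were Zcchc24, Tmem100 and Pomt2 (r = 0.994, 0.989 and 0.987, and 0.99 to 0.993 over the 9 tumours). For Aldh18a1 they were Dll3, Pnlip and Mcm6 (r = 0.971, 0.97 and 0.965, and 0.786 to 0.847 over the 9 tumours). Those of Gls2 were Flt3, Dab2ip and Cfap69 (r = 0.972, 0.967 and 0.966), and those of Glud1 were Cst3, Ttyh1 and Emp2 (r = 0.965, 0.963 and 0.944). Got1 was most like Eno2, the neuronal enolase (r = 0.986), followed by Tcf25 and Wdr47. Got2 was most like Pld3, Eef1a2 and Ndufa10 (r = 0.963 or more), and Asns was most like Ckmt1, Uqcrc1 and Mdh2 (r = 0.966 to 0.963). Bcat1 had no likeness above 0.874 (Pmvk, then Rbbp5 and Emc1), and Bcat2 was most like Als2cl, Jrkl and Arl13b (r = 0.926 to 0.897).

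The other genes of these pathways were taken from lists of amino acid genes and compared between tumours and normal brain. Of all genes, edgeR called 5.22% there, with a median log2 fold change of -0.01. An unadjusted edgeR p under 0.05 was seen for 23.6% of all genes, and DESeq2 called 11.7%. Among 12 glutamate and glutamine enzymes, Gpt2 rose, Gls2 fell and 10 did not pass. The log2 fold change was below 0 in 11 of the 12, with a median of -0.24. The glutamine synthetase Glul (-0.27), the GABA-making decarboxylase Gad1 (-0.29) and the GABA transaminase Abat (-0.18) were among those that did not pass (edgeR adjusted p = 0.652, 0.55 and 0.578). Of 11 tested proline, ornithine and arginine enzymes, Aldh18a1 alone passed (median -0.03). The reductase Pycr1, which completes proline synthesis in mitochondria, differed by 0.99 in log2 terms (SE 0.42) and did not pass, with an edgeR adjusted p of 0.18, at 1.75 ± 0.602 CPM in tumours and 0.872 ± 0.257 in normal brain (SD, n = 9 and 3). Of the 23 genes of branched-chain amino acid breakdown edgeR called 0 (3 at an unadjusted p under 0.05), with a median of 0.01, and DESeq2 called 2, both lower.

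Among 12 serine and glycine synthesis genes the cytosolic serine hydroxymethyltransferase Shmt1 rose and 11 did not pass (median 0.34). Shmt1 stood at 4.34 ± 1.57 CPM in tumours and 1.41 ± 0.205 in normal brain (SD, n = 9 and 3), higher in tumours by 1.61 in log2 terms (SE 0.38), with an edgeR adjusted p of 0.0328. Of 19 glutamate and amino acid transporters 2 rose and 17 did not pass (median -0.08). Slc7a5, the large neutral amino acid transporter that carries branched-chain amino acids, stood at 97.6 ± 18 CPM in tumours and 41.4 ± 2.36 in normal brain (SD, n = 9 and 3). Every tumour lay above every normal brain, where 7.5% of all genes tested had groups that did not overlap. The log2 fold change of Slc7a5 was 1.23 (SE 0.16, edgeR adjusted p = 0.0108). Of 10 endothelial markers 5 were called higher and 2 stood lower by log2 fold change (median 0.84). They summed to 227 to 360 CPM in tumours and 182 to 203 in normal brains. Proliferation markers (9 of 10 called higher, median 4.45) and oligodendrocyte precursor markers (8 of 10, median 2.91) rose in the same comparison. The part of endothelial, dividing or precursor cells in the Slc7a5 result was not tested. Slc1a1, the neuronal glutamate transporter, rose by 0.39 (SE 0.1, edgeR adjusted p = 0.0499), a call that ended without any 1 of 11 libraries, PDGFA tumour 1 being the exception, and with no filter on low counts (adjusted p = 0.492). The astrocyte glutamate transporters Slc1a2 (-0.25) and Slc1a3 (-0.09) did not pass (edgeR adjusted p = 0.72 and 0.939).

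**Figure D5:**
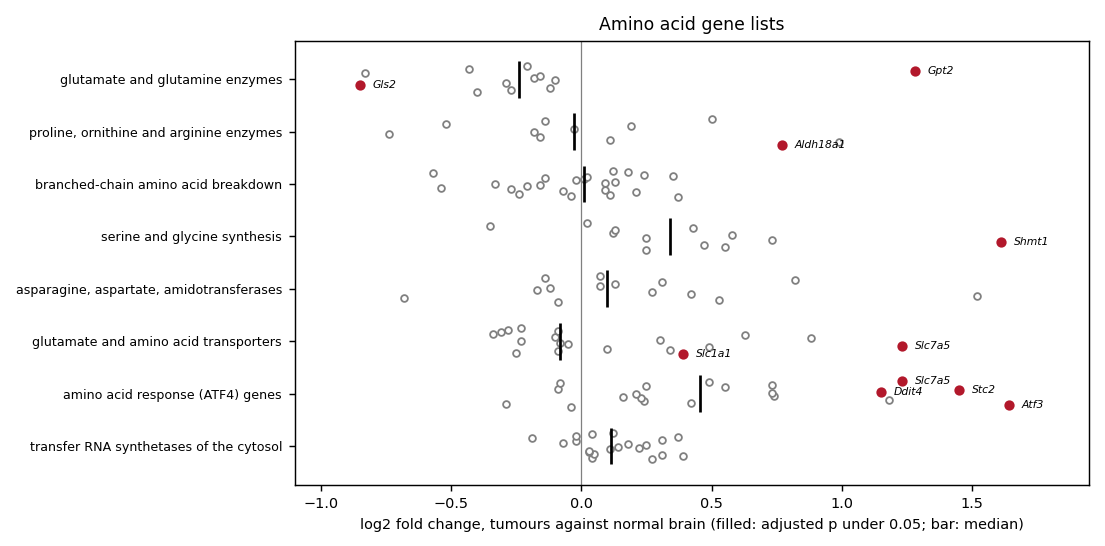
Log2 fold change of tumours over normal brain (x axis) for the tested genes of 8 amino acid gene lists (rows); filled points passed an edgeR adjusted p of 0.05 and are named, and bars are list medians. Gpt2, Aldh18a1, Shmt1 and Slc7a5 stand to the right of lists whose medians lie between -0.24 and 0.46.

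Of 20 genes of the amino acid response that ATF4 drives, 4 rose and 16 did not pass (median 0.46). An unadjusted edgeR p under 0.05 was seen for 8, and for 23.6% of all genes. DESeq2 called 5 higher, beside 11.7% of all genes in either direction. The gene DESeq2 added was Sesn2, a leucine sensor that restrains mTORC1, at 21.7 ± 8.17 CPM in tumours and 9.53 ± 1.25 in normal brain (SD, n = 9 and 3). Its log2 fold change was 1.18 (edgeR adjusted p = 0.0595, DESeq2 adjusted p = 0.0057), and it is named after its values were seen. Its groups did not overlap, as for 7.5% of all genes tested. Those that rose were Slc7a5, the transcription factor Atf3 (1.64, on 3 to 10 raw counts per normal brain), the mTORC1 inhibitor Ddit4 (1.15) and the secreted glycoprotein Stc2 (1.45), with edgeR adjusted p = 0.0108, 0.0377, 0.0173 and 0.0351. Atf4 itself (-0.04), Asns (-0.09), Ddit3 (-0.29), Trib3 (0.42), Chac1 (0.24) and the serine synthesis genes Psat1 (0.55) and Phgdh (0.25) did not pass. Among 14 asparagine, aspartate and glutamine amidotransferase genes and 20 cytosolic transfer RNA synthetases, edgeR called 0 (4 at an unadjusted p under 0.05 in each), with medians of 0.1 and 0.12, and DESeq2 called 1 and 0. For IDH1_R132H against IDH1WT tumours edgeR and DESeq2 called 0 in each of these 8 lists, as they called 0% of all genes, with list medians from -0.18 to 0.18. An unadjusted edgeR p under 0.05 was seen for 2 of the 19 transporters alone, beside 2.67% of all genes. They were Slc25a22 (log2 fold change 0.8) and Slc17a7 (0.94), with an unadjusted edgeR p of 0.028 for each, named after their values were seen. All the calls in these lists ended without any 1 of the normal brains. Shmt1 and Stc2 also ended without IDH1_R132H tumour 2 or IDH1WT tumour 2 or 3 (edgeR adjusted p = 0.0502 to 0.0622), and Atf3 without IDH1_R132H tumour 1 or 2, IDH1WT tumour 2 or 3 or PDGFA tumour 2 (0.0502 to 0.0633).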

How the data were processed

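The authors deposited a table of raw read counts per Ensembl gene for the 12 libraries, and a table of log2 values that is named rlog. Per the submitters' processing notes, the tools were DESeq2 1.16.1, featureCounts 1.5.1, Subread and STAR 2.5.2b, with GRCm38. Not given in the sources used here are the annotation, the strand setting and the handling of multiply mapped reads. Columns were matched to samples by name, and replicates were numbered in record order. Symbols and exon lengths came from GENCODE M21 on GRCm38, which named 49326 of 49671 genes.

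The counts were analysed with DESeq2 1.42.0, limma 3.58.1 and edgeR 4.0.16 in R 4.3.3. Low genes were dropped by filterByExpr at a minimum count of 10 and a total of 15, and libraries were scaled with TMM. A robust quasi-likelihood model with 1 coefficient per group was fitted to all 12 libraries, with 8 residual degrees of freedom and Benjamini-Hochberg adjustment over 17812 genes. Intervals are 95%. Log2 ratios used a prior count of 2. Ratios of paralogs were compared by exact two-sided permutation, adjusted over 4 ratios.

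The 9 genes, the other gene lists and the cell markers were chosen with earlier results of these data known. Named genes are the 9, the paralog Gpt, the 3 genes most like each (mean log2 CPM of at least 3, no Gm or Rik symbols) and the called genes of each list, to which a few uncalled list genes were added by known function after their values were seen. The fits were tested on simulated data. Alternatives were RLE scaling, DESeq2, limma on the deposited log2 values, no low count filter, removal of ribosomal-RNA-like loci, limma voom with quality weights and leaving out libraries. A floxed allele named in the labels and 1 of the 4 ratios are not reported here.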

Additional observations from a re-analysis of the deposited data

How the results depend on the processing

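For tumours against normal brain, the count of the 9 genes called was 3 under RLE scaling, DESeq2, limma on the deposited values and no filter. The shares of all genes called there were 5.36%, 11.7%, 4.85% and 5.19%. The count was also 3 without ribosomal-RNA-like loci (5.39% of all genes). Without both libraries that stand apart, PDGFA tumour 1 and IDH1_R132H tumour 3, it was 3 beside 15.7% of all genes. Limma voom with quality weights called 5, adding Bcat1 and Got1, beside 33.7% of all genes. Leaving out each library in turn gave 0 to 3, beside 0% to 13.5% of all genes. For IDH1_R132H against normal brain voom also gave 5, beside 41.1% of all genes. The range without single libraries was 0 to 3, beside 0% to 12.2%. For IDH1WT against normal brain the count of 1 became 2 under DESeq2 (7.15% of all genes) and 0 with the deposited values (0.636%). It was 3 under voom (16.9%) and 2 without both libraries that stand apart (6.96%). The range without single libraries was 0 to 3, beside 0% to 5.79% of all genes. With no filter the 1 gene was Gpt2 in place of Aldh18a1, beside 3.66% of all genes. For PDGFA against normal brain the count of 0 became 1 under DESeq2 (2.72% of all genes) and 2 under voom (2.45%). It was 2 without both libraries (5.19%), and the range without single libraries was 0 to 2, beside 0% to 4.4% of all genes. For IDH1_R132H against PDGFA it was 1 (Gpt2) under voom and 1 with no filter, beside 2.22% and 1.48% of all genes. The cause was not tested. The difference in the Gpt2 to Gpt ratio ran from 1.87 to 2.26 when single libraries were left out.

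Genes that were not called changed sign in some settings. In tumours against normal brain Bcat2 was 0.01 under voom and 0.08 without both libraries. In IDH1_R132H against IDH1WT tumours Bcat1 was 0.004 under RLE and 0.003 under DESeq2 and with the deposited values, and Bcat2 was 0.04 under voom and 0.03 without both libraries. Leaving out single libraries, the tumour values ran from -0.1 to 0.01 for Bcat2 and from -0.21 to 0.08 for Asns. Those of IDH1_R132H against IDH1WT ran from -0.14 to 0.12 for Bcat1, -0.28 to 0.03 for Bcat2, -0.05 to 0.6 for Gpt2, -0.41 to 0.23 for Got1 and -0.2 to 0.1 for Asns. No paired analysis was possible because the labels give no replicate numbers that groups share. Depth limits Gls2, Bcat2 and Gpt most, with lowest counts of 42, 33 and 15.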

Other observations

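Among the genes of branched-chain amino acid breakdown, the 2 that DESeq2 called and edgeR did not were Ivd, the isovaleryl-CoA dehydrogenase of leucine breakdown, and Pcca, a subunit of propionyl-CoA carboxylase. They were chosen after their values were seen, and DESeq2 called 11.7% of all genes for tumours against normal brain. Ivd stood at 31.2 ± 5.89 CPM in tumours and 45.4 ± 5.81 in normal brain, and Pcca at 29.9 ± 7 and 44.1 ± 2.14 (SD, n = 9 and 3). The log2 fold changes were -0.54 (SE 0.16, edgeR adjusted p = 0.0627, DESeq2 adjusted p = 0.034) and -0.57 (SE 0.18, edgeR adjusted p = 0.0788, DESeq2 adjusted p = 0.047).

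PDGFA tumour 1 lay outside the range of the normal brains in all 9 genes, and so did IDH1WT tumour 2. PDGFA tumour 1 lay below all normal brains for Gpt2, Glud1, Bcat2 and Gls2. It lay above all of them for Got1, Got2, Asns, Aldh18a1 and Bcat1. For Aldh18a1 (25.9 CPM) and Bcat1 (128 CPM) it lay among the other tumours, at 24.9 to 32.6 and 92.4 to 139 CPM. Its proliferation markers summed to 120 CPM, against 168 to 803 in the other tumours and 10.6 to 17.5 in the normal brains.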
